A study of Mus musculus with 12 samples.

Results

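Upstream promoter shoulder peaks were accessible regions whose centre lay more than 100 and at most 500 bp upstream of the transcription start site (TSS) of a protein-coding gene. They were taken from the master peak-list by its deposited gene type (protein-coding) and its signed distance to the TSS, and no accessibility value entered the choice. The list held 84243 peaks, and 2412 of them, or 2.86% (95% Wilson interval 2.75 to 2.98%), met the rule. Chromatin accessibility had been measured by ATAC-seq, in which a transposase inserts sequencing adapters into exposed DNA, in 12 samples from wild-type C57BL/6 mice aged 8 to 12 weeks. There were 2 replicates of each of 6 sorted cell types: hematopoietic stem cells (HSCs; cKit+ Lin- Sca1+ Flk2- Slamf1+), megakaryocyte progenitors (MkPs; cKit+ Lin- Sca1- Slamf1- CD41+), erythroid progenitors (EPs; CD71+, with or without Ter119), granulocyte/macrophages (GMs; Gr1+ Mac1+), B cells (B220+ CD43-) and T cells (CD3+ CD25-). The labels give bone marrow as the source of the first 5 cell types and thymus as that of the T cells, which were kept whether or not they carried CD4 or CD8, and no group had a treatment or an engineered allele. The peaks of all 6 cell types had been pooled into 1 list that holds no value for a sample or a cell type. A peak therefore marks a region called in at least 1 cell type, its depth is unknown, and no difference between replicates or cell types could be measured.

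A promoter is the DNA around a TSS on which RNA polymerase II and the general transcription factors assemble. The core promoter, close to the start, can hold a TATA box or an initiator, and the stretch just upstream of it, the proximal promoter, typically holds CCAAT boxes bound by NF-Y and GC boxes bound by SP and KLF factors. Many promoters of widely expressed genes lie in CpG islands, which are rich in G, C and the dinucleotide CpG, whereas many promoters of genes used in 1 blood lineage are poor in CpG and carry sites for factors of that lineage.

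Untranscribed bases upstream of the TSS are shown for 7 shoulder peaks, 1 for each of 6 lists of lineage genes and 1 for a list of housekeeping genes, each from the first gene of its list with at least 60 such bases in its peak, so that the strings compared below can be seen in place. Each run is read 5′ to 3′ on the strand of its gene from mm10, is limited to bases of the peak upstream of the TSS and outside curated transcripts and annotated exons, and is at most 300 bases long. Capitals mark exact matches to any of the 17 motif strings given below. Pgk1, which encodes the glycolytic enzyme phosphoglycerate kinase, is shown from chrX:106186800-106187099 (plus strand), with a GC box and a CCAAT box. Cebpa, which encodes the myeloid transcription factor C/EBPα, is shown from chr7:35118993-35119292 (plus strand), with an E-box, a CTCF string and a TATA box. Runx3, a transcription factor of CD8 T cells, is shown from chr4:135120377-135120644 (plus strand), with 2 CCAAT boxes and 2 RUNX strings. Itga2b, which encodes the platelet integrin CD41, is shown from chr11:102469884-102470183 (minus strand), with 1 IRF string. The stretches of Lmo2 (chr2:103957603-103957902, plus strand), a bridging factor of hematopoietic transcription complexes, of Gata1 (chrX:7967945-7968244, minus strand), the erythroid GATA factor, and of Pax5 (chr4:44710695-44710994, minus strand), the B cell commitment factor, hold no match.
Pgk1: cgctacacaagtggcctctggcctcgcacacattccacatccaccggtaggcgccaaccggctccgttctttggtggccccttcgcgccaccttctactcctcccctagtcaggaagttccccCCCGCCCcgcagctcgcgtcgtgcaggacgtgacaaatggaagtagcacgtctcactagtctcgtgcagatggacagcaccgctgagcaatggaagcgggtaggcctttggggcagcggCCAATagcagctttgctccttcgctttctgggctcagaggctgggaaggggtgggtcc
Cebpa: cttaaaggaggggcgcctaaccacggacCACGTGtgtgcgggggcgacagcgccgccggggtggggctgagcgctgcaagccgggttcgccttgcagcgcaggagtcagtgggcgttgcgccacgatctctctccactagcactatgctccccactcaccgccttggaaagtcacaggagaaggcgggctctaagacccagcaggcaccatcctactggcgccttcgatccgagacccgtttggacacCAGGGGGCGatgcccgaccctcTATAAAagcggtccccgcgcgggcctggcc
Runx3: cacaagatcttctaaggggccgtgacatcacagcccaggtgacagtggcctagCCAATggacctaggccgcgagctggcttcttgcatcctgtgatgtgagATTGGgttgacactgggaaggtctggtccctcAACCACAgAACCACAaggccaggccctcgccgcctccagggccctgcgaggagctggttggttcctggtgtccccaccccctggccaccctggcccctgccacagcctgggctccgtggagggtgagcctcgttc
Itga2b: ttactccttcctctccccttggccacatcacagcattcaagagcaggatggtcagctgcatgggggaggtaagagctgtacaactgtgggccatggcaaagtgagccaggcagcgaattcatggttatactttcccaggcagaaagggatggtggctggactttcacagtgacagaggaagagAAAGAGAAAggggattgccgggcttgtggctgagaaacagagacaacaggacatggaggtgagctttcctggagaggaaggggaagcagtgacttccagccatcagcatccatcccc
Lmo2: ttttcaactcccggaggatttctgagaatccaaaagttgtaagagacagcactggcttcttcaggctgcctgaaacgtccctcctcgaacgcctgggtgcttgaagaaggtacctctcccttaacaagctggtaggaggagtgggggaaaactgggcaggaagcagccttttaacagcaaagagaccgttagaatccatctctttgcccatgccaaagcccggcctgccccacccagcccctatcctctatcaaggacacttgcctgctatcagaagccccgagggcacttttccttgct
Gata1: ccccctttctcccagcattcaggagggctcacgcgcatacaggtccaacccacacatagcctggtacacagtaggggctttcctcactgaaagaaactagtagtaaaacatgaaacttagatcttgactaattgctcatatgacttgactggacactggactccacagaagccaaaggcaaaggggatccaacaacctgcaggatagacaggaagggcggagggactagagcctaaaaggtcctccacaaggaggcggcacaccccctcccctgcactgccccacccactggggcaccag
Pax5: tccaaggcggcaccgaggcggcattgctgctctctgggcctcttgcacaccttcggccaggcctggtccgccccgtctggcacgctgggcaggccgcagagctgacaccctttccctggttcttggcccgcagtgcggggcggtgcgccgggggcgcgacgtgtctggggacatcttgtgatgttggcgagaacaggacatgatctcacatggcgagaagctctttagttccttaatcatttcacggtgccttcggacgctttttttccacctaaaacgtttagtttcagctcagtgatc

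The shoulder peaks made up 19.4% (18.8 to 20.2%) of the 12402 protein-coding peaks centred within 500 bp of a TSS. Core peaks, centred at most 100 bp from the TSS, numbered 7680 (61.9%), and downstream shoulder peaks, more than 100 and at most 500 bp inside the gene, numbered 2310 (18.6%). The distance of the upstream peaks reached -499 bp, with quartiles at -248, -168 and -128 bp. In steps of 50 bp away from the TSS their number fell from 973 to 514, 331, 222, 128, 102, 80 and 62. The matching downstream steps held 435, 498, 525, 223, 152, 144, 163 and 170 peaks. Upstream peaks thus thinned out at each step, while downstream peaks were most numerous in the step from 200 to 250 bp. No break marked either end of the range, since 263 peaks lay in the last 10 bp inside the near end and 258 in the first 10 bp outside it, and the same counts at the far end were 14 and 21. Each peak is just under 500 bp wide, so 1811 (75.1%, 73.3 to 76.8%) still covered their TSS and 601 ended upstream of it. On the autosomes lay 2346 peaks, on X 64 and on Y 2. For 2191 peaks (90.8%), the RefSeq start of the deposited transcript gave the deposited distance to within 2 bp.

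**Figure D1:**
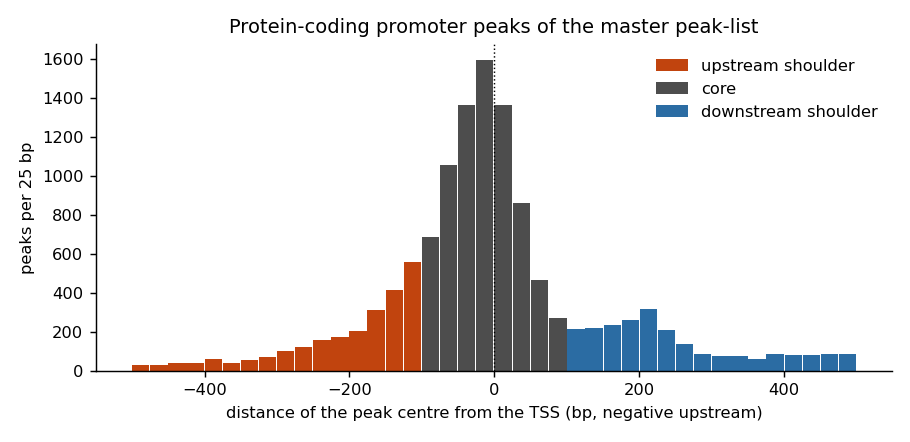
Number of protein-coding promoter peaks (vertical axis) by distance of the peak centre from the TSS in bp (horizontal axis, 25 bp bins, with distance 0 in the first bin downstream). The 2412 upstream shoulder peaks (red) thin out with distance from the 7680 core peaks (grey), and the 2310 downstream shoulder peaks (blue) have a second maximum between 200 and 225 bp.

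The 2412 peaks belonged to 2366 gene names, 5 of which read as calendar dates in the deposited table and were kept as given. Of the 2366 genes, 2322 had 1 shoulder peak, 42 had 2 and 2 had 3. For 2002 genes (84.6%, 83.1 to 86.0%) the list held no core and no downstream peak, so that the shoulder peak was their only promoter peak. A core peak was also present at 190 genes (8.03%) and a downstream peak at 195. Centres in the list are at least 500 bp apart. A core peak at the same TSS was therefore possible only for shoulder peaks 400 bp or more upstream. The room for a downstream peak was limited too. The share of genes without another promoter peak thus depends on this spacing and on the rule. By the same spacing no 2 shoulder peaks could share a TSS. At all 44 genes with more than 1 shoulder peak the peaks were accordingly assigned to different TSSs. Their outermost centres were 574 to 492830 bp apart, with a median of 12776.5 bp. Gnas, which encodes the stimulatory G protein α subunit and has several alternative first exons, had shoulder peaks at -374, -288 and -132 bp from 3 TSSs. Ing1, which encodes a chromatin reader of the inhibitor of growth family, had them at -395, -145 and -126 bp. At Foxp1, a transcription factor of lymphoid cells among others, the pair at -241 and -106 bp was the farthest apart, at 492830 bp. At Pparg, the adipocyte and macrophage nuclear receptor, the peak at -471 bp had a GC content of 65.5% and that at -226 bp one of 38.7%. Both peaks of Per1, a component of the circadian clock, fell below the CpG limit used here, and both peaks of Pax6, a developmental transcription factor, passed it.

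A peak was called CpG-rich where its GC content was at least 50% and its ratio of observed to expected CpG at least 0.6. This was so for 1767 of the 2412 upstream shoulder peaks (73.3%, 71.5 to 75%) and for 5981 of the 7680 core peaks (77.9%, 76.9 to 78.8%). The difference was -4.62 percentage points (95% Newcombe interval -6.64 to -2.65, Fisher's exact test, adjusted exact p = 1.71e-05). With 1 peak kept per gene it was -2.32 points (adjusted exact p = 0.0573). Of the downstream shoulder peaks 74.2% were CpG-rich, and the difference of -0.90 points (-3.41 to 1.62) did not pass the test (adjusted exact p = 0.610). Peaks are not replicates, so this and every p below covers the counting error of peaks only, adjusted over 40 tests of shares by the Benjamini-Hochberg method.

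The CpG-rich share depended on how far upstream the peak lay. It was 78.5% (76.3 to 80.5%) of the 1487 peaks between 100 and 200 bp upstream, 69.6% of the 553 between 200 and 300 bp, 65.2% of the 230 between 300 and 400 bp and 45.8% (37.8 to 54.0%) of the 142 between 400 and 500 bp. Downstream, the same steps gave 72.7, 77.7, 72.6 and 71.8%, with no fall. Among peaks centred at least 250 bp from the TSS, the upstream share was 11.5 points below the downstream one (difference -11.5, adjusted exact p = 1.84e-05). Median GC content was close in all groups, at 63.5% upstream, 63.1% in the core and 65.3% downstream, and the median CpG ratios were 0.777, 0.789 and 0.769.

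Promoters with an upstream shoulder peak were also CpG-dense farther upstream, when sequence was aligned on the TSS and not on the peak. From 500 to 400 bp upstream they held 4.66 CpG dinucleotides per 100 bp at a GC content of 55%, against 2.60 and 47.6% at promoters with a core peak and 2.51 and 48.2% at promoters with a downstream peak. From 200 to 100 bp upstream the densities were 7.82, 5.73 and 4.66 per 100 bp. In the first 100 bp of the gene they were 9.36, 9.23 and 8.31, so that upstream and core promoters were close there. These means describe promoters chosen by where their peak lies and were not tested.

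**Figure D2:**
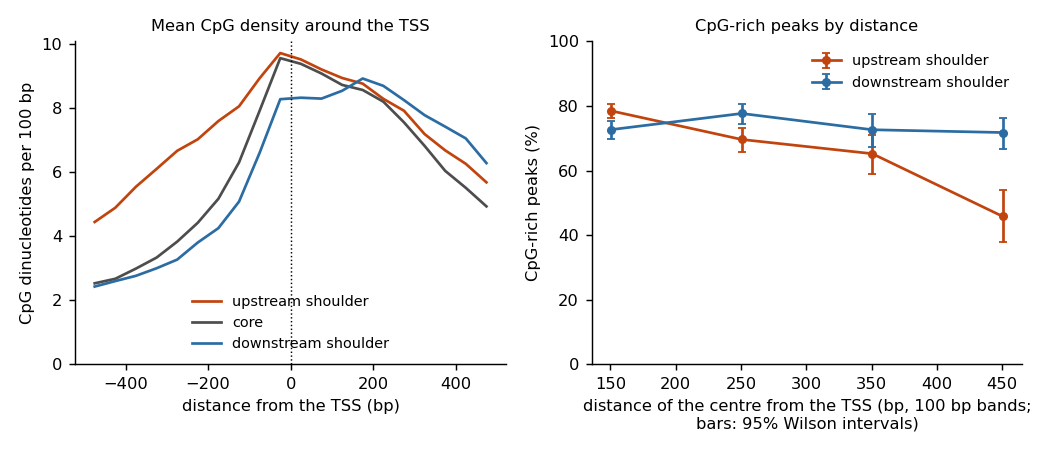
Left, mean CpG dinucleotides per 100 bp (vertical axis) by distance from the TSS in bp, in 50 bp steps, for promoters with an upstream shoulder, core or downstream shoulder peak. Right, share of CpG-rich peaks in percent by distance of the centre from the TSS in bp, with 95% Wilson intervals. The upstream share goes from 78.5% to 45.8% with distance while the downstream share stays between 71.8 and 77.7%.

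Exact strings of 17 factor families were searched on both strands of each whole peak: TATAAA for the element bound by TBP, CCAAT (NF-Y), GGGCGGG (GC box of SP and KLF factors), GCGCATGCG (NRF1), CCGGAAGT (GABPA and ELK, of the ETS family), GAGGAAGT (PU.1), TGACGTCA (CREB and ATF), AAGATGGCG (YY1), ACTACAATT (ZNF143), CACGTG (E-box of USF and MYC), GGCGGGAA (E2F), CAGGNGGCG (CTCF), AGATAA for the GATA factors, TGTGGTT (RUNX), TGANTCA (AP-1), TTGCNNAA (C/EBP) and AAANNGAAA (IRF). GGGCGGG and GGCGGGAA can share bases. A match is a string of letters and does not show binding. Against core peaks, upstream shoulder peaks held 4 strings more often and 3 less often, and 10 did not pass the test. Against downstream peaks, 5 were held more often, none less often and 12 did not pass.

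The promoter-proximal strings were the most frequent in upstream peaks. Shares of different strings cannot be ranked directly, because the strings are 5 to 9 letters long and CCAAT is the shortest. A GC box was present in 1568 of the 2412 upstream peaks (65.0%, 63.1 to 66.9%), in 59.3% of core peaks (adjusted exact p = 3.78e-06), in 49.4% of downstream peaks (adjusted exact p = 3.82e-26) and in 16.1% of all 84243 peaks. In the central 200 bp alone the difference from core peaks was -0.53 points, and among peaks at least 250 bp away it was -3.94 points, neither past the threshold. Within CpG-rich peaks it was 9.40 points and passed, so the order of upstream and core peaks turned with the stretch searched and the distance. A CCAAT box was present in 1239 upstream peaks (51.4%, 49.4 to 53.4%), in 45.6% of core peaks (adjusted exact p = 4.49e-06), in 31.3% of downstream peaks (adjusted exact p = 2.82e-43) and in 45.3% of all peaks. From 250 bp upstream the difference from core peaks was 2.96 points and did not pass (adjusted exact p = 0.303). The difference from downstream peaks was 20.1 points (17.3 to 22.8). It remained between 19.9 and 22.9 points in the central 200 bp, at 250 bp or more and in CpG-rich peaks. CCAAT and GC boxes are densest in the 100 bp upstream of the TSS in each group. The rule places upstream centres before the TSS and downstream centres inside the gene, with core centres between them. At core promoters CCAAT matches numbered 338 per 1000 in those 100 bp and 82.1 in the first 100 bp of the gene. The differences from core and from downstream peaks therefore also depend on the distance that chose the peaks.

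The 3 strings held less often than in core peaks were those of ETS, YY1 and CREB or ATF factors. Shoulder peaks reach less of the sequence around the TSS, where all 3 strings are densest. These shares therefore also depend on the distance that chose the peaks. The ETS string was present in 160 upstream peaks (6.63%, 5.71 to 7.70%) and in 10.1% of core peaks (adjusted exact p = 1.08e-06). YY1, which binds many promoters just inside the transcribed region, had a match in 71 upstream peaks (2.94%) and in 5.35% of core peaks (adjusted exact p = 3.70e-06). The CREB and ATF string, the cyclic AMP response element, had shares of 2.90 and 4.26% (adjusted exact p = 0.00808), and its difference of -1.36 points lost the call in CpG-rich peaks (adjusted exact p = 0.0657) and at 250 bp or more (adjusted exact p = 0.0578). None of these 3 strings passed the test against downstream peaks, which held them at 6.36, 2.99 and 2.64%. In the central 200 bp, the ETS string (3.28 against 1.82%, adjusted exact p = 0.00473) and the CREB and ATF string (1.91 against 0.65%, adjusted exact p = 0.000512) were more frequent upstream than downstream. Both differences also depend on the rule, which places downstream centres inside the gene. All 3 were more frequent in shoulder peaks than in the whole list, where they were found in 2.22, 1.00 and 1.16% of peaks.

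Strings of blood lineage factors and of AP-1 had lower shares than in the whole list, a comparison that was not tested. The TATA box string, treated below, also had a lower share than in the whole list. The lower shares were thus not particular to lineage factors. GATA, the string of the GATA1, GATA2 and GATA3 factors, was present in 235 upstream peaks (9.74%, 8.62 to 11%), 8.11% of core peaks (adjusted exact p = 0.0361), 7.66% of downstream peaks (adjusted exact p = 0.0329) and 24.1% of all peaks. AP-1, the string of FOS and JUN dimers, was present in 7.71% of upstream, 6.33% of core (adjusted exact p = 0.0480) and 15.3% of all peaks. Within CpG-rich peaks both calls against core peaks were lost, with differences of 0.12 points for GATA (adjusted exact p = 0.911) and 0.63 points for AP-1 (adjusted exact p = 0.511). The AP-1 call was also lost in the central 200 bp and at 250 bp or more (adjusted exact p = 0.281 and 0.303), and the GATA call against downstream peaks was lost under each of the 3 alternatives (adjusted exact p = 0.109 to 0.281). RUNX, PU.1, C/EBP and IRF strings were present in 5.47, 4.52, 12.5 and 10.9% of upstream peaks, against 16.1, 9.39, 19.3 and 21.6% of all peaks. In whole peaks at all distances none of these 4 passed the test against core or downstream peaks. At 250 bp or more IRF was present in 14.1% and passed against core (10.6%, adjusted exact p = 0.0343) and downstream peaks (9.85%, adjusted exact p = 0.0424), and in the central 200 bp C/EBP passed against core peaks (5.68 against 4.43%, adjusted exact p = 0.0312). These calls, too, compare stretches whose place around the TSS is set by the rule. The farthest upstream peaks, between 400 and 500 bp from the TSS, held GATA in 17.6% and C/EBP in 21.1%, the highest of the 4 upstream steps for both strings, and a GC box in 41.5%, the lowest.

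A TATA box string was found in 202 upstream peaks (8.37%), in 7.83% of core peaks (adjusted exact p = 0.554) and in 5.80% of downstream peaks (adjusted exact p = 0.00221). The last call was lost in the central 200 bp (adjusted exact p = 0.222) and at 250 bp or more (adjusted exact p = 0.0640). At the usual place of a functional TATA box, from -40 to -20 bp on the strand of the gene, it was found at 39 of 2405 promoters with an upstream shoulder peak (1.62%, 1.19 to 2.21%). The same window held it at 0.90% of core and 1.00% of downstream promoters, values that were not tested. The E-box was present in 15.6% of upstream peaks, 13.9% of core peaks (adjusted exact p = 0.0821) and 11.5% of downstream peaks (adjusted exact p = 0.000124). NRF1, ZNF143, E2F and CTCF strings passed neither test in whole peaks, with upstream shares of 3.65, 0.62, 7.01 and 12.7%. In the central 200 bp NRF1 (2.03 against 0.78%, adjusted exact p = 0.000984) and ZNF143 (0.41 against 0.04%, adjusted exact p = 0.0296) passed against downstream peaks, and in CpG-rich peaks CTCF passed against core peaks (15.6 against 12.9%, adjusted exact p = 0.0133). The rule places downstream centres inside the gene. The calls of TATA, E-box, NRF1 and ZNF143 strings against downstream peaks therefore also depend on the distance that chose the peaks.

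**Figure D3:**
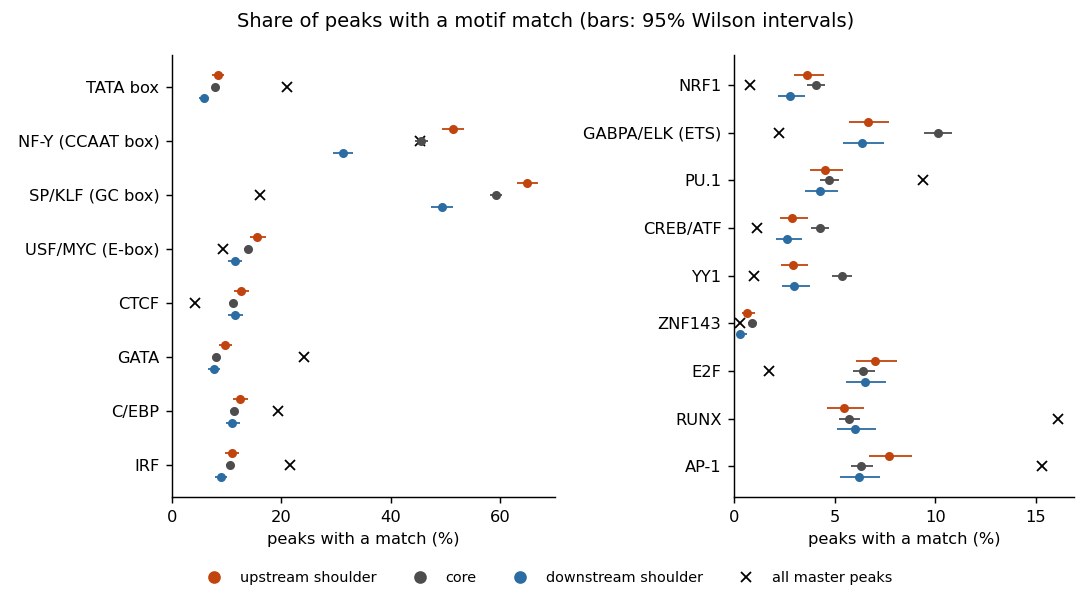
Share of peaks in percent (horizontal axis) with at least 1 match to each of the 17 strings (vertical axis), for upstream shoulder, core and downstream shoulder peaks with 95% Wilson intervals, and for all 84243 master peaks (crosses). CCAAT and GC boxes are in 51.4 and 65.0% of upstream peaks, and the ETS and YY1 strings are at 6.63 and 2.94%, below the core shares of 10.1 and 5.35%.

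The strings also differed in where they lay inside the peak. Of the 1239 upstream peaks with a CCAAT box, 48.7% (45.9 to 51.5%) had one within 50 bp of the peak centre, close to the 50.6% of core peaks and above the 25.6% of downstream peaks. For the GC box the shares were 44.5, 53.3 and 37.6%. CCAAT and GC boxes are densest in the 100 bp upstream of the TSS, and the rule places downstream centres inside the gene. Their lower central shares in downstream peaks depend on that choice and are no finding. For the ETS string, 23.8% (17.8 to 30.9%) of upstream peaks with a match had it near the centre, against 59.5% (56.0 to 62.9%) of core peaks, and for YY1 15.5% (8.88 to 25.7%) against 44.0% (39.3 to 48.9%). At core promoters the ETS and YY1 strings are densest within 100 bp of the TSS, and the rule places every upstream centre more than 100 bp from it, so the lower central shares of these strings follow from the choice of peaks and are no finding. The central CCAAT share was 55.1% of matched peaks between 100 and 200 bp upstream and 26.2% (17 to 38.0%) of those between 400 and 500 bp.

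On the scale of the TSS, CCAAT boxes extended farther upstream at these promoters. From 200 to 100 bp upstream there were 283 CCAAT matches per 1000 promoters with an upstream shoulder peak and 164 per 1000 with a core peak, and from 300 to 200 bp upstream 212 and 121. In the 100 bp next to the TSS the order was the other way, 291 against 338. GC boxes numbered 377 against 201 per 1000 from 200 to 100 bp upstream and 624 against 564 in the last 100 bp. The ETS string numbered 27.4 against 53.5 per 1000 in the last 100 bp, and YY1 22.5 against 33.6 in the first 100 bp of the gene. Both strings thus kept their usual place at the TSS and were fewer there. These densities are descriptions, since the promoters were chosen by the position of their peak.

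**Figure D4:**
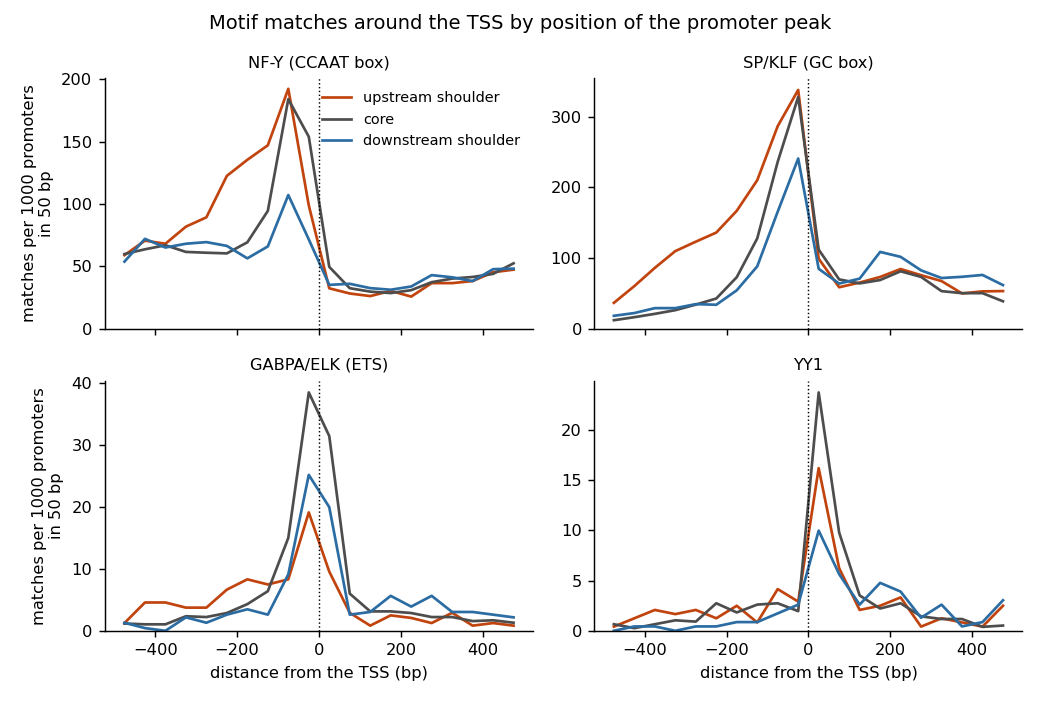
Matches per 1000 promoters in 50 bp steps (vertical axes) by distance from the TSS in bp (horizontal axes) for 4 strings at promoters with an upstream shoulder, core or downstream shoulder peak. From 450 to 100 bp upstream, CCAAT and GC box matches lie above the core profile, and the ETS and YY1 maxima at the TSS are lower than at core promoters.

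Some promoters serve 2 genes that are read away from each other. A protein-coding TSS on the opposite strand within 1000 bp upstream was found for 130 of the 2405 upstream peaks with a known strand (5.41%, 4.57 to 6.38%), and for 4.95% of downstream peaks (adjusted exact p = 0.619). Of 7658 core peaks 714 (9.32%) had one, but a centre between close TSSs is always near one of them and so counts as core, and the rule thereby lowers the upstream share. The TSSs of the 130 pairs were 55 to 993 bp apart with a median of 395 bp. The pairs at core peaks had a median of 137 bp, a gap at which a centre between the TSSs can only be core. In 123 pairs the peak centre lay between the TSSs, and in 60 of these it lay from 40 to 60% of the way across the gap. The deposited distance is to the nearest TSS that HOMER knows, so a centre lies nearer to its own start by construction, except in 14 of the 130 pairs, where the curated start of the partner was nearer. A shoulder centre must also lie more than 100 bp from its own start. In the narrowest gaps these limits leave it mainly the middle. Of the 123 peaks, 57 covered both TSSs, 54 only their own, 2 only that of the partner and 10 neither. Of the 130 peaks, 117 were CpG-rich (90.0%).

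The pairs with the closest TSSs were Fyttd1 with Rubcn (55 bp), Apex2 with Pfkfb1 (88 bp), Snap29 with Pi4ka (135 bp), Ptrh2 with Vmp1 (147 bp) and Tssk6 with Ndufa13 (164 bp), and in all 5 the centre lay beyond the partner's TSS. Fyttd1 encodes an mRNA export adaptor and Rubcn a negative regulator of autophagy. Snap29 encodes a membrane fusion protein and Pi4ka a lipid kinase. Among the 5 widest were Rufy4 with Tns1 (993 bp), Map4k1 with Eif3k (966 bp) and Asphd1 with Sez6l2 (953 bp), as well as Foxj3 with Frg2f1 (892 bp). Map4k1 encodes a kinase of blood cells and Eif3k a subunit of a translation initiation factor, and the peak between them was not CpG-rich.

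A shoulder peak may also lie on a start that the deposited distance did not use. Another curated TSS, more than 100 bp from the assigned one, lay within 100 bp of the centre in 85 upstream peaks (3.53%, 2.87 to 4.35%) and in 43 downstream peaks (1.87%, adjusted exact p = 0.00161). Of the 85, 57 belonged to the same gene, 22 to a non-coding gene and 6 to another protein-coding gene. Counting predicted RefSeq transcripts as well raised this to 494 upstream peaks (20.5%, 19 to 22.2%), of which 402 had such a start in the same gene, and to 242 downstream peaks (10.5%). Within 50 bp of the centre the curated difference was 0.77 points and did not pass (adjusted exact p = 0.0905).

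A second peak of the list, assigned to any gene, lay within 500 bp of the TSS of 177 upstream peaks (7.36%). The same was so for 274 downstream peaks (11.9%, adjusted exact p = 1.08e-06). Centres in the list are at least 500 bp apart, so the room for a second centre grows with distance. By steps of 100 bp the upstream shares were 5.47, 6.69, 11.8 and 22.5%, and the downstream ones 3.02, 3.07, 20.6 and 49.1%. The order of the groups was thus reversed between the near and the far steps. Within 1000 bp of the TSS the difference was -0.49 points (adjusted exact p = 0.742).

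Shoulder peaks were then looked up for 6 lists of lineage genes and 1 list of housekeeping genes. At least 1 shoulder peak was found at 32 of the 168 lineage genes (19%) and at 2362 of all 21000 protein-coding genes (11.2%), a background that includes 4775 genes with no peak. Counting only the peak nearest the TSS, and only genes with a promoter peak, the shoulder was the nearest at 24 of 139 lineage genes (17.3%) and at 2122 of 11518 protein-coding genes (18.4%). By that count the lineage genes lay near the background. At Runx1, Lmo2, Etv6, Nfe2, Epb41, Syk, Ciita and Zap70 the nearest peak was a core peak, listed beside the shoulder peak. Downstream peaks were also listed at Bcl11a, Sptb, Nfe2 and Epb41. B cell genes had 9 of 26 with a shoulder peak, HSC genes 8 of 30, T cell genes 5 of 30, erythroid genes 4 of 30, megakaryocyte and platelet genes 3 of 22, granulocyte/macrophage genes 3 of 30 and housekeeping genes 7 of 30.

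The lineage and housekeeping genes differed in CpG content. Of the 32 shoulder peaks at lineage genes 10 were CpG-rich (31.3%, 18 to 48.6%), against 73.3% of all shoulder peaks and all 7 at housekeeping genes. Core peaks of the same lineage genes were CpG-rich in 29 of 108 cases (26.9%) and their downstream peaks in 12 of 24, so the low share was not particular to the upstream position. Of the 32 peaks 22 covered their TSS, 16 held a CCAAT box and 11 a GC box. Of the 7 housekeeping peaks all covered their TSS, 4 held a CCAAT box and 6 a GC box.

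Among the HSC genes, Runx1, a master regulator of blood stem cell formation, had a core peak at 48 bp from 1 TSS. From another TSS, at -121 bp, it had a CpG-rich shoulder peak with 2 CCAAT boxes. The other CpG-rich ones were at the transcriptional repressors Gfi1 (-141 bp) and Etv6 (-493 bp), at Zfpm1 (-329 bp), which encodes the GATA partner FOG1, and at Cxcr4 (-131 bp), the receptor that holds HSCs in the marrow. The peak of Etv6 was the farthest from its TSS of all listed genes and held no match. That of Cxcr4 held TATA strings at -30 and -28 bp and 2 GC boxes. Lmo2 (-145 bp) and Fli1 (-192 bp), an ETS factor of HSCs and megakaryocytes, were not CpG-rich, and their peaks held a GATA string at -54 and -237 bp.

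At megakaryocyte genes, the peak of Itga2b (-247 bp) had a GC content of 52.7% and a CpG ratio of 0.148, and held PU.1, RUNX and IRF strings. That of Nfe2 (-146 bp), a transcription factor of platelet formation, had 2 GC boxes, and that of Thbs1 (-182 bp), which encodes thrombospondin, was the only CpG-rich one of the 3. At erythroid genes, the peak of Gata1 (-284 bp) ended upstream of the TSS, had a CpG ratio of 0.194 and held none of the 17 strings. Trim10 (-116 bp), an erythroid RING finger gene, had a CCAAT box 8 bp from the peak centre and a GATA string at -160 bp. The membrane skeleton genes Epb41 (-119 bp) and Sptb (-171 bp) both held GC boxes, and only the peak of Epb41 was CpG-rich.

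At granulocyte/macrophage genes, Cebpa (-118 bp) was CpG-rich with a TATA string at -27 bp, Cebpe (-322 bp), a factor of late granulocyte maturation, held a GC box 14 bp from the centre, and Camp (-121 bp), which encodes the antimicrobial peptide cathelicidin, held a C/EBP string at -263 bp. The CpG ratios of the last pair were 0.235 and 0.136. Among B cell genes, only Pax5 (-379 bp) and Syk (-420 bp), a kinase of the B cell receptor, were CpG-rich, and both peaks ended upstream of the TSS. Cd79a (-139 bp), a signalling chain of the B cell receptor, held no match. Ciita (-115 bp), the coactivator of MHC class II genes, had 2 CCAAT boxes, 1 of them 5 bp from the centre. Pou2af1 (-150 bp), an octamer coactivator, had overlapping CCAAT matches and an IRF string, and Igll1 (-111 bp), which encodes part of the surrogate light chain, had a RUNX string 10 bp from the centre. Ms4a1 (-106 bp), which encodes CD20, lay closest to the TSS of all listed genes, next to Fcer2a (-108 bp), which encodes the low-affinity IgE receptor. Bcl11a (-304 bp), a transcriptional repressor needed for B cell development, held 3 GC boxes and missed the CpG limit with a ratio of 0.582.

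None of the 5 shoulder peaks at T cell genes was CpG-rich. Runx3 (-202 bp) held CCAAT boxes 11 and 37 bp from the centre and RUNX strings at -403, -132 and -124 bp. Zbtb7b (-386 bp), the CD4 lineage factor ThPOK, had a CCAAT box 9 bp from the centre. Ccr7 (-168 bp), a chemokine receptor of naive T cells, held PU.1, RUNX and AP-1 strings, and Cd2 (-281 bp), an adhesion receptor, a CCAAT box. Zap70 (-353 bp), a kinase of the T cell receptor, held no match. The gene had a second peak at -5 bp from another TSS. At housekeeping genes the GC and CCAAT boxes of Pgk1 (-116 bp) shown above lay at -174 and -56 bp. Atp5b (-115 bp), a subunit of ATP synthase, held 5 CCAAT boxes and 2 GC boxes. Rpl13a (-192 bp), a ribosomal protein gene, held 2 CCAAT boxes and a GC box. Ppia (-209 bp), which encodes cyclophilin A, and Polr2a (-145 bp), the largest subunit of RNA polymerase II, had TATA strings at -29 and -31 bp. Eef1a1 (-152 bp), a translation elongation factor, held 2 GC boxes, and Nono (-130 bp), an RNA-binding protein of the nucleus, 2 CCAAT boxes.

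**Figure D5:**
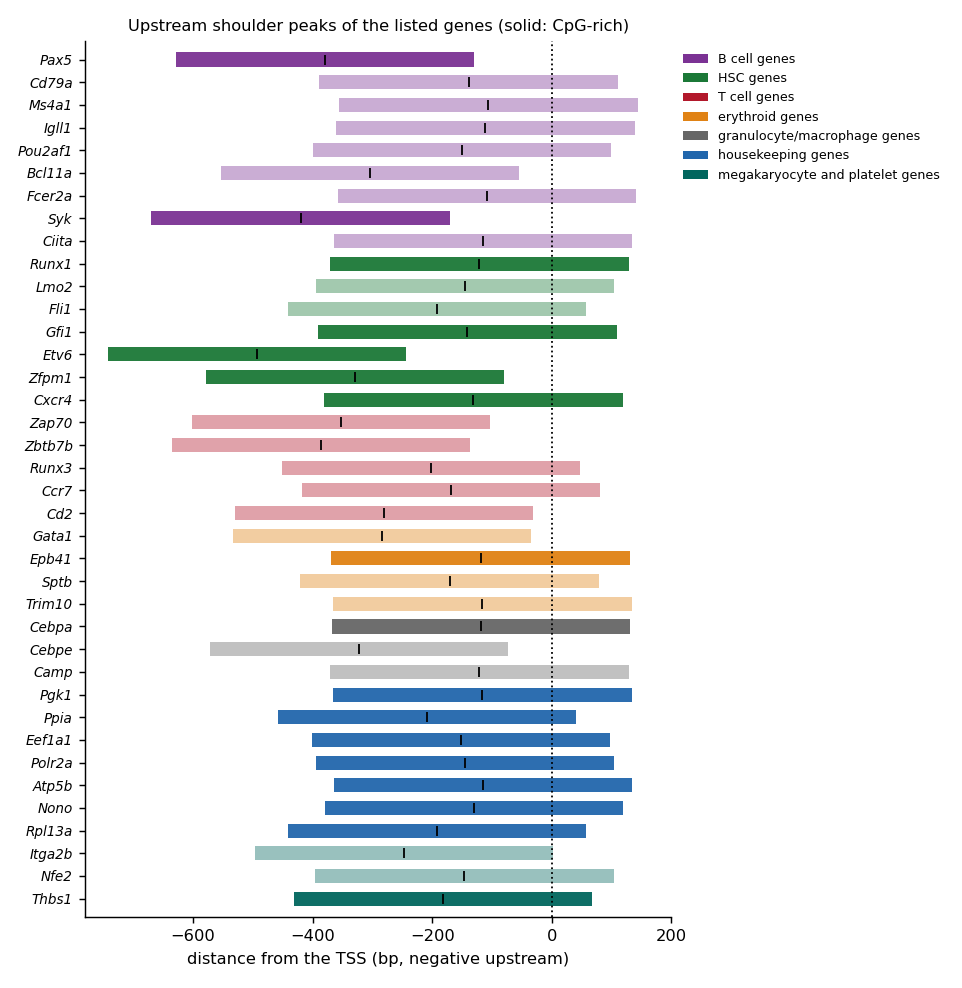
Shoulder peaks of the listed genes, except 1 lineage gene not reported here, as bars of the peak width (horizontal axis, distance from the TSS in bp, 1 gene per row, tick at the peak centre), coloured by list, solid where CpG-rich and pale where not. All 7 housekeeping peaks and 10 of those at lineage genes are solid, and centres run from -493 bp at Etv6 to -106 bp at Ms4a1.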

How the data were processed

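ATAC-seq was performed by the authors in 12 samples, 2 of each of 6 cell types. Mapping (mm10) and peak calling were done in the ENCODE pipeline for ATAC-seq. They took the optimal Irreproducible Discovery Rate list of each cell type, filtered the concatenated lists to non-overlapping peaks with chromVAR and annotated them with HOMER (4.10.2 in the submitters' processing notes). The deposited peak score was 0 in every peak and was not used. Positions and distances were used as the authors deposited them, in bp and without normalization.

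Strands, TSSs and exons were those of RefSeq (GRCm38.p6, annotation release 108), found through the deposited transcript of each peak, and sequence from the same assembly, which is mm10. Shares were compared by two-sided Fisher's exact tests with Benjamini-Hochberg adjustment over 40 tests and a threshold of 0.05. Intervals cover counting error only. In simulated sequences, all of 200 planted sites per motif family were found. The members, gene lists and motifs were chosen with earlier results of these data known. Named genes were all listed genes with a shoulder peak, genes with more than 1, and the 5 closest and 5 widest head-to-head pairs, of which 1 listed gene and 1 pair are not reported here. Pparg, Per1 and Pax6 were picked from the second group after their values were seen. Sequences were printed for the first gene of each list whose shoulder peak had at least 60 bases outside curated transcripts and RefSeq exons, which passed over Runx1, Zap70 and Zbtb7b with 0 such bases. Alternatives changed the distance bounds, TSS set, CpG limits, windows and searched sequence. Scripts ran under scipy 1.17.1, pandas 2.3.3, numpy 2.4.6 and Python 3.11.15, with plots by matplotlib 3.10.9.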

Additional observations from a re-analysis of the deposited data

How the results depend on the processing

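From -500 to -250 bp there were 601 peaks, the CpG-rich share differed from downstream peaks by -11.5 points and passed the test, and 4 instead of 7 strings differed from core peaks. CCAAT, GC box, CREB/ATF and AP-1 lost the call there and IRF gained it. The GC box difference from core peaks turned to -3.94 points there and to -0.53 points in the central 200 bp, neither past the threshold. Past the threshold no longer were the CpG-rich difference from core peaks with 1 peak per gene (-2.32 points), another TSS within 50 bp of the centre (0.77 points) and a second peak within 1000 bp of the TSS (-0.49 points). The cause was not tested. Of the other summary results under the remaining alternatives, 19 kept their direction and side of the threshold or stayed within 1.5 times the count. Of 36 alternatives for single strings, 22 kept the call, 12 lost it and 2 turned, both for the GC box. Strings that had not passed gained 8 calls, 3 against core and 5 against downstream peaks. By curated RefSeq TSSs 2513 peaks were upstream, and 2283 were shared (94.7% of the shoulder peaks, 90.8% of the RefSeq set). By RefSeq Select TSSs the nearest peak was upstream at 31 listed genes, of which 29 were among the 31 by deposited distance. The CpG island class of the detailed annotation could not be used, since 0 of 2412 peaks carried it. No paired analysis was possible because the list is pooled and holds no value per sample. Depth is unknown.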
